A study of Mus musculus with 22 samples.

Results

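The levels of 10 genes of threonine, glycine and one-carbon metabolism were followed in 22 bulk RNA-seq libraries of mouse cells. The genes, taken by symbol as enzymes of connected pathways, were Tdh, Gcat, Gldc, Shmt1, Shmt2, Mthfd1, Mthfd2, Mat2a, Ahcy and Nnmt. They hold 12 of the 34489 entries of the gene count table, because Gcat and Mat2a have 2 entries each. The study asked whether activators of the kinase AMPK can bring mouse epiblast stem cells (mEpiSCs), which are in a primed state of pluripotency, back to the naive state of embryonic stem cells (mESCs). Rex1-GFP mESCs stood for the naive state with 1 library, and the line carries a GFP reporter of Rex1 (Zfp42) and was grown in 2iL, that is LIF with inhibitors of MEK and GSK3. The primed state was represented by 1 library of Oct4GIP mEpiSCs, a line with a transgene for GFP and puromycin resistance under Oct4 control sequences, and by 1 library of 129/MSM mEpiSCs, derived from a cross of MSM/Ms males with 129X1/SvJ females. Primed Oct4GIP was grown on fibronectin and primed 129/MSM on feeders in another medium, so line and culture cannot be told apart between them. For reversion, mEpiSCs were plated on mouse embryonic fibroblast (MEF) feeders with FGF2 and activin A for a day and then kept for 16 days in Basal medium with or without the agents. Oct4GIP cultures were sampled at day 8 (4 libraries) and at day 16 (4 libraries) in Basal medium alone, in 2iL, with the AMPK activator AICAR, or with AICAR+LIF. After day 16 all cells of a culture were moved to 2iL. Reverted Oct4GIP cells from AICAR and from AICAR+LIF were sampled after 2 and after 3 passages (d16+2p and d16+3p, 4 libraries). A further 7 libraries came from 10 passages (d16+10p). Those of Oct4GIP (5) had begun with metformin+LIF, with the activator A769662, with A769662+LIF, with AICAR+LIF or with AICAR, and those of 129/MSM (2) with AICAR+LIF or with AICAR. The strain label is 129/Ola for Oct4GIP and Rex1-GFP, and the tissue label is epiblast for every library. No condition has a replicate library, so each group pools treatments, passages or lines, and its p-values measure only the spread between these libraries.

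Threonine dehydrogenase (Tdh) and glycine C-acetyltransferase (Gcat) split threonine into glycine and acetyl-CoA in mitochondria, and the glycine cleavage system, of which Gldc is the decarboxylase, hands a carbon of glycine to folate. Serine hydroxymethyltransferases and the Mthfd enzymes exchange further carbon between serine, glycine and the folate forms used for purines, thymidylate and methionine, and Mat2a turns methionine into S-adenosylmethionine, the methyl donor for DNA and histones. Naive mouse embryonic stem cells are known for high Tdh and for their dependence on threonine in the medium.

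All positions are on GRCm38 (GENCODE M21), and levels are deposited read counts scaled by library size and TMM factors to a common unit, CPM. Tdh (ENSMUSG00000021953) lies at chr14:63492347-63509092 on the minus strand. Gcat has the entries ENSMUSG00000006378, at chr15:79030874-79038353, and ENSMUSG00000116378, at chr15:79030901-79042531, which overlap on the plus strand. Over all libraries the first entry took 70.1% of the Gcat counts and the second 29.9%, so the split between them is uncertain. Gldc (ENSMUSG00000024827) lies at chr19:30098447-30175429, Shmt1 (ENSMUSG00000020534) at chr11:60788104-60811718, Shmt2 (ENSMUSG00000025403) at chr10:127517123-127522444 and Mthfd2 (ENSMUSG00000005667) at chr6:83305691-83325908, all on the minus strand. Mthfd1 (ENSMUSG00000021048) lies at chr12:76255298-76319803 on the plus strand. Mat2a (ENSMUSG00000053907) lies at chr6:72432799-72439558 on the minus strand, and a second Mat2a entry, ENSMUSG00000104463, has no position in the annotation. The Mat2a entries took 50.3% and 49.7% of the pooled Mat2a counts, and between 46.7% and 56.0% fell on the second in each library, so they were also summed. Ahcy (ENSMUSG00000027597) lies at chr2:155059310-155074497 and Nnmt (ENSMUSG00000032271) at chr9:48591877-48605153, both on the minus strand. The use of strand in counting is not stated, so reads of opposite-strand neighbours that overlap an end of a gene could not be told apart. The neighbours with more than a few counts were Smcr8 beside Shmt1 (5462 counts in all, against 6633 for Shmt1) and Ndufa4l2 beside Shmt2 (1027 against 10335).

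The library of naive mESCs held 3189765 counts, primed Oct4GIP 2584715 and primed 129/MSM 2965743. Totals ran from 2678787 to 3404489 at d16+2–3p and from 1689495 (AICAR) to 3380314 (metformin+LIF) at d16+10p. At day 8 they were 2860985 in Basal medium, 2396575 in 2iL, 956357 with AICAR and 438771 with AICAR+LIF, and at day 16 they were 5290163, 2835779, 3231540 and 2686012 in the same order. A count of 0 allows a level of up to 3 counts, which is between 0.5676 CPM (Basal d16) and 5.95 CPM (AICAR+LIF d8). Low levels in the day 8 libraries with AICAR therefore rest on the fewest reads. Such floors, and the 95% intervals given with single counts, cover counting error only.

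Lists of marker genes show what each library held. The 8 naive markers (Zfp42, Esrrb, Klf2, Klf4, Tfcp2l1, Nr5a2, Tbx3 and Nanog) summed to 4347 CPM in naive mESCs, to 2867 (AICAR d16+2p), 2813 (AICAR+LIF d16+2p), 3428 (AICAR d16+3p) and 3234 (AICAR+LIF d16+3p), and to between 3576 and 4897 at d16+10p. In those 12 libraries 8 of 8 were above the floor and Tfcp2l1 was the most abundant. The sum was 261 CPM in primed Oct4GIP, where Nanog made 244, 3 of 8 were above the floor and Nr5a2 and Tbx3 were at 0. It was 93.8 CPM in primed 129/MSM, where Nanog made 60.5 and 5 of 8 were above the floor. In the day 8 cultures it was 29.4 (Basal), 16.6 (2iL), 58.9 (AICAR) and 125 CPM (AICAR+LIF), and in the day 16 cultures 80.2, 71.2, 83.9 and 100.1 CPM, with 2 to 6 of 8 above the floor. Klf4 was the most abundant of the list in every culture but AICAR+LIF d8, where it was Nanog, and Zfp42 was at 0 in every culture but Basal d16, which had 2 counts.

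The 4 markers shared by both states (Pou5f1, Sox2, Utf1 and Tdgf1) summed to 1438 CPM in naive mESCs, to 1524 in primed Oct4GIP, to 981 in primed 129/MSM and to between 1252 and 2149.6 in the reverted libraries, with Pou5f1 the most abundant. In the cultures the sums were 176 (Basal), 226 (2iL), 215 (AICAR) and 198 CPM (AICAR+LIF) at day 8 and 315, 185, 131 and 165 CPM at day 16, with Sox2 the most abundant and Utf1 at 0 in all 8. Pou5f1 alone, which lay between 463 and 1191 CPM in the other 14 libraries, was at 1.45, 0.832, 14.2 and 35.7 CPM in the day 8 cultures and at 0.757, 0.804, 3.76 and 21.5 CPM in the day 16 cultures. This defining marker of the labelled cell type was thus close to absent from the cultures in Basal medium and 2iL.

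The 13 fibroblast markers (Col1a1, Col1a2, Col3a1, Col5a2, Col6a3, Dcn, Lum, Postn, Thy1, Pdgfra, Pdgfrb, Fbn1 and Twist2) summed to 3711, 3752, 3806 and 3230.1 CPM in the day 8 cultures and to 6013, 52618, 18362 and 20228 CPM in the day 16 cultures. Col1a1 was the most abundant of them in 7 cultures and Col3a1, at 17469.7 CPM, in 2iL d16, with 12 or 13 of 13 above the floor and none at 0. The sum was 26.8 CPM in naive mESCs, 64.6 in primed Oct4GIP, 848 in primed 129/MSM, 113 and 118 at d16+2p, 27.7 and 21.5 at d16+3p, and between 24.1 and 31.2 at d16+10p. Of the 13, 6 were above the floor in naive mESCs, 5 in primed Oct4GIP, 13 in primed 129/MSM and 4 to 10 in reverted cells, with Fbn1, Pdgfrb, Col1a1 or Col1a2 the most abundant. Twist2 was at 0 in naive mESCs, primed Oct4GIP and all 11 reverted libraries. The 8 primed markers (Fgf5, Pou3f1, Otx2, T, Foxa2, Eomes, Cer1 and Dnmt3b) summed to 70.04 CPM in naive mESCs, 389 in primed Oct4GIP and 2636 in primed 129/MSM. They summed to 563, 602, 439 and 534 CPM at d16+2–3p and to between 75.9 and 238 at d16+10p, with Dnmt3b the most abundant in all of these. Above the floor were 4 of 8 in naive mESCs, 7 in primed Oct4GIP, 8 in primed 129/MSM and 4 to 6 in reverted cells, and Fgf5 or Cer1 was at 0 in most of the latter. In the cultures the primed sum was 87.5, 55.3, 140.6 and 103 CPM at day 8 and 126, 18.5, 151 and 169 CPM at day 16, with Pou3f1, Otx2 or Dnmt3b highest and 3 to 8 of 8 above the floor. In bulk RNA, fewer cells of a type and less RNA per cell cannot be told apart, and the cultures were read as mixtures.

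**Figure D1:**
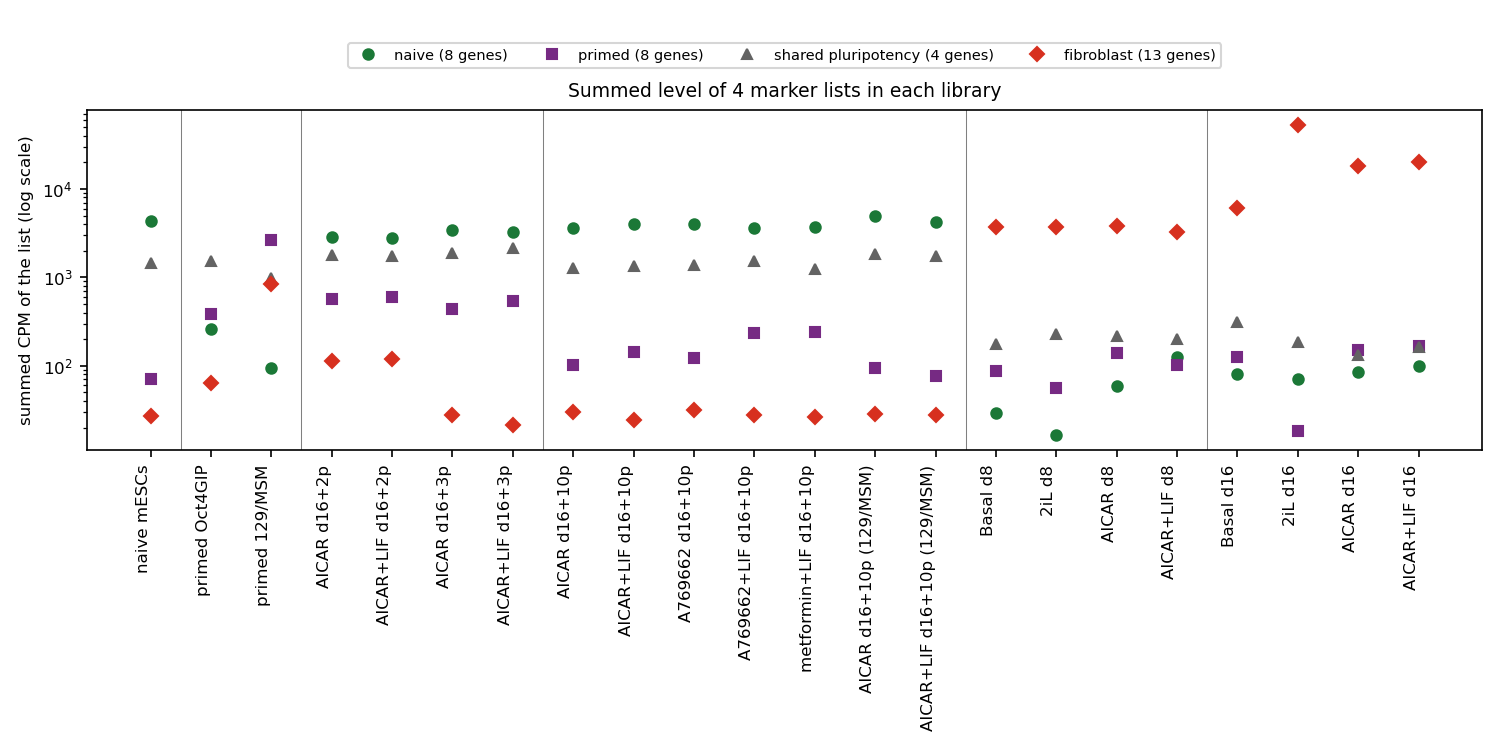
Summed level of each marker list (CPM, log axis) in each of the 22 libraries. The 8 day 8 and day 16 cultures have fibroblast sums of 3230.1 CPM and above, while the reverted libraries have naive sums of 2813 CPM and above.

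In the comparison of reverted d16+10p with primed libraries, which asks how far the reverted cells differ from where they began, 36.6% of 18739 genes passed an adjusted p of 0.05 in edgeR's quasi-likelihood test, and 5 of the 12 entries did, all higher in reverted cells (Tdh, Shmt1, both Mat2a entries and Nnmt). The d16+10p and primed libraries did not overlap for 38.5% of the 18739 genes tested and 84.4% of the 6863 called. The median log2 difference was 0.75 over the 12 entries and −0.01 over all genes. Between d16+10p and d16+2–3p, a comparison of later with earlier passages, 9.35% of the same genes were called and 5 of the 12 entries, all higher after 10 passages (both Gcat entries, Shmt2, Mthfd2 and Nnmt), with medians of 0.32 for the entries and −0.00 for all genes. Between the 8 cultures and the primed libraries 37.5% were called and 9 of the 12 entries, 8 lower in the cultures (both Gcat entries, Gldc, Shmt1, Shmt2, Mthfd1, Mthfd2 and Ahcy) and Nnmt higher, with medians of −1.61 and 0.04. The fibroblast sums were 3230.1 to 52618 CPM in the cultures and 64.6 and 848 CPM in primed cells. The part of this difference in what the libraries held was not tested for any culture call. The primed libraries serve in both of their comparisons, so those counts are not independent. Within the cultures, a fit of 14026 genes with treatment and day called 9.60% for AICAR and AICAR+LIF against Basal medium and 2iL, and none of the 10 entries it could test by edgeR, although 4 had an unadjusted p under 0.05. DESeq2 called 2 of them and 2140 genes in all, and limma voom 1 of them and 1436 genes. The same fit called 31.2% for day 16 against day 8, and 2 of the 10 entries, Gldc and Shmt1, both lower at day 16. The entries' medians were 0.14 and 0.08, against −0.02 and 0.01 over all genes. With entries of 1 symbol summed, the counts in the 5 comparisons were 4 of 10, 4 of 10, 8 of 10, 0 of 9 and 2 of 9. The medians were not recomputed in this way, and those over 12 entries hold 2 values each for Gcat and Mat2a. The median of 0.75 against primed cells lies between the Gcat entries (0.78 and 0.71), neither of which was called.

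**Figure D2:**
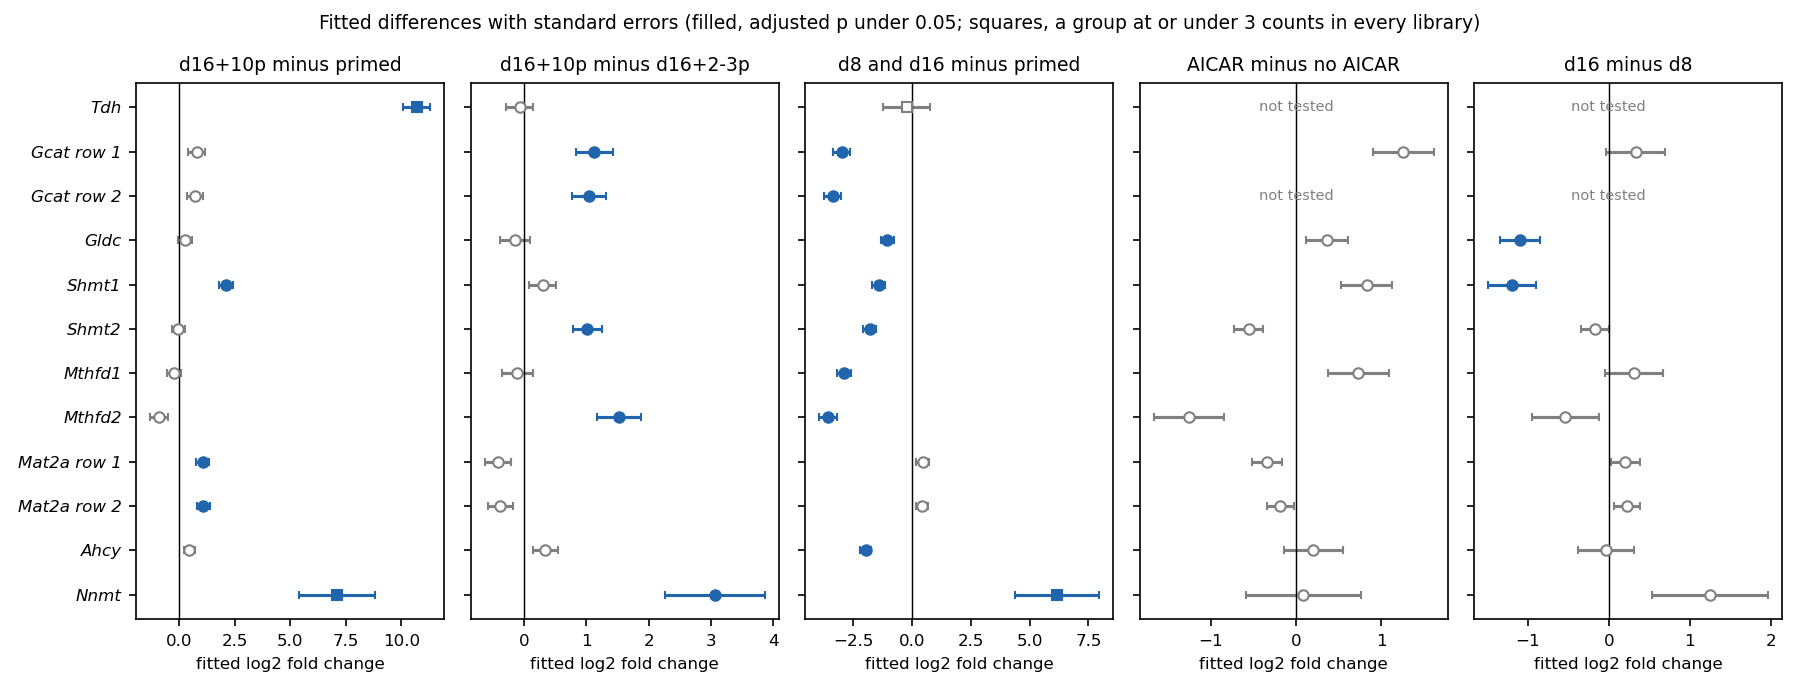
Fitted log2 difference with its standard error for the 12 entries (vertical axis) in the 5 comparisons, with filled symbols where the adjusted p was under 0.05 and squares where a group had 3 counts or fewer in every library. Entries called against primed cells lie to the right for d16+10p (5 entries), whereas 8 of the 9 called for the cultures lie to the left.

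Tdh, which oxidises threonine in the first step of its breakdown, was at 673 CPM in naive mESCs (2161 counts, interval 645 to 702 CPM). It was at 0.369 CPM in primed Oct4GIP and at 0.317 CPM in primed 129/MSM, 1 count each, which allow up to 2.09 and 1.80 CPM. In reverted cells it was at 636 CPM (AICAR d16+2p), 616 (AICAR+LIF d16+2p), 675 (AICAR d16+3p) and 736 CPM (AICAR+LIF d16+3p), and at d16+10p it ran from 465 (AICAR) over a median of 674 to 795 CPM (A769662). All 11 reverted libraries were thus in the range around the naive library and none overlapped the primed ones. The cultures held almost none, with 0 counts in Basal, AICAR and AICAR+LIF at day 8 and 1 count (0.416 CPM) in 2iL. At day 16 there was 1 count in Basal medium (0.189 CPM), 6 counts with AICAR (1.88 CPM) and 0 in 2iL and AICAR+LIF. The ratio of d16+10p to primed was 1906, with a counting interval of 528 to 15744, and edgeR gave an adjusted p of 1.63e-10. The ratio was 1797 (323 to 71003) within Oct4GIP and 1934 (347 to 76410.5) within 129/MSM. Tdh did not pass the threshold between d16+10p and d16+2–3p (log2 −0.07, SE 0.22, adjusted p 0.900), where its groups overlapped.

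Gcat converts the product of Tdh to glycine and acetyl-CoA. Its entries summed to 129.5 CPM in naive mESCs, 104 in primed Oct4GIP and 51.6 in primed 129/MSM. In reverted cells the sum was 45.2 CPM (AICAR d16+2p), 55.7 (AICAR+LIF d16+2p), 77.6 (AICAR d16+3p) and 66.6 CPM (AICAR+LIF d16+3p), and 92.6 (metformin+LIF), 137 and 158 CPM (AICAR) as lowest, median and highest at d16+10p. Every library of 10 passages lay above every library of 2 or 3 passages, by 2.15-fold in the means, and the early reverted libraries overlapped the primed ones. The share of all genes whose d16+10p and d16+2–3p libraries do not overlap was not computed. The log2 difference was 1.13 (SE 0.30, adjusted p 0.0195) for ENSMUSG00000006378 and 1.04 (SE 0.28, adjusted p 0.0207) for ENSMUSG00000116378. The adjusted p rose above 0.05 when single early libraries were left out, while the difference stayed near 1. Without AICAR d16+2p the entries were at 0.996 (adjusted p 0.0824) and 0.95 (0.0827), without AICAR+LIF d16+2p at 1.13 (0.0598) and 0.92 (0.0886), and without AICAR+LIF d16+3p the first was at 1.14 (0.0508). Over all alternatives the adjusted p ran from 0.00146 to 0.128 for the first and from 0.00197 to 0.363 for the second.

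Against primed cells Gcat at d16+10p was higher by 0.78 (SE 0.38, adjusted p 0.116) and 0.71 (SE 0.36, adjusted p 0.125), and the groups overlapped. The first entry was called without primed Oct4GIP (1.44, adjusted p 0.0459) and in limma voom (0.86, adjusted p 0.0370), in a range of 0.0370 to 0.799 over the alternatives. The second was called in a fit of the 9 libraries compared (0.69, adjusted p 0.0467), in a range of 0.0467 to 0.683. The primed 129/MSM level was 2.01-fold below that of primed Oct4GIP, and the summed ratio of d16+10p to primed was 1.20 within Oct4GIP and 2.90 within 129/MSM. Differences between lines were tested on AICAR and AICAR+LIF only, where the ratio within Oct4GIP was 1.40. The test gave log2 1.20 (SE 0.30, adjusted p 0.0503) for the first entry and 0.79 (SE 0.40, adjusted p 0.276) for the second. In the cultures the Gcat sum was 3.99 CPM (Basal), 6.24 (2iL), 13.3 (AICAR) and 9.91 (AICAR+LIF) at day 8 and 4.92, 10.5, 14.7 and 17.0 CPM at day 16, all below every other library. It was 7.73-fold lower in the mean than in primed cells, with log2 −2.98 (SE 0.36, adjusted p 4.16e-06) and −3.37 (SE 0.36, adjusted p 1.09e-06) for the entries.

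Gldc decarboxylates glycine in the cleavage system. It was at 136 CPM in naive mESCs, 118 in primed Oct4GIP and 85.2 in primed 129/MSM, at 107 (AICAR d16+2p), 117.5 (AICAR+LIF d16+2p), 148 (AICAR d16+3p) and 172 CPM (AICAR+LIF d16+3p), and at 71.6 (AICAR+LIF), 129.9 and 176 CPM (129/MSM, AICAR) as lowest, median and highest at d16+10p. These groups overlapped one another, and neither d16+10p comparison passed the threshold (log2 0.27, SE 0.31, adjusted p 0.539 against primed and −0.15, SE 0.24, adjusted p 0.781 against d16+2–3p). The ratio to primed cells was 0.907 within Oct4GIP and 1.90 within 129/MSM. On AICAR and AICAR+LIF only, where it was 0.850 within Oct4GIP, the lines differed by log2 1.19 (SE 0.45, adjusted p 0.145). Without the 129/MSM libraries the difference from primed cells was −0.17. Gldc in the day 8 cultures lay close together at 68.6 (Basal), 67.8 (2iL), 76.9 (AICAR) and 75.3 CPM (AICAR+LIF), and at day 16 it was 39.9, 16.1, 36.0 and 42.7 CPM. All 8 values were below both primed libraries, and all day 16 values were below all day 8 values. The cultures were 1.92-fold lower than primed cells (log2 −1.04, SE 0.29, adjusted p 0.00781). Without primed Oct4GIP this was −0.79 (adjusted p 0.153, in a range of 0.00279 to 0.153). Day 16 was 2.14-fold lower than day 8 (log2 −1.10, SE 0.25, adjusted p 0.0131). The adjusted p was 0.0512 with all libraries thinned to 438771 counts (log2 −0.90) and 0.0707 without both AICAR libraries of day 8 (log2 −1.20). Over the alternatives it ran from 9.12e-05 to 0.0707. The fibroblast sum separated by day too, at 3230.1 to 3806 CPM at day 8 and 6013 to 52618 CPM at day 16, and its part in the day difference was not tested.

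**Figure D3:**
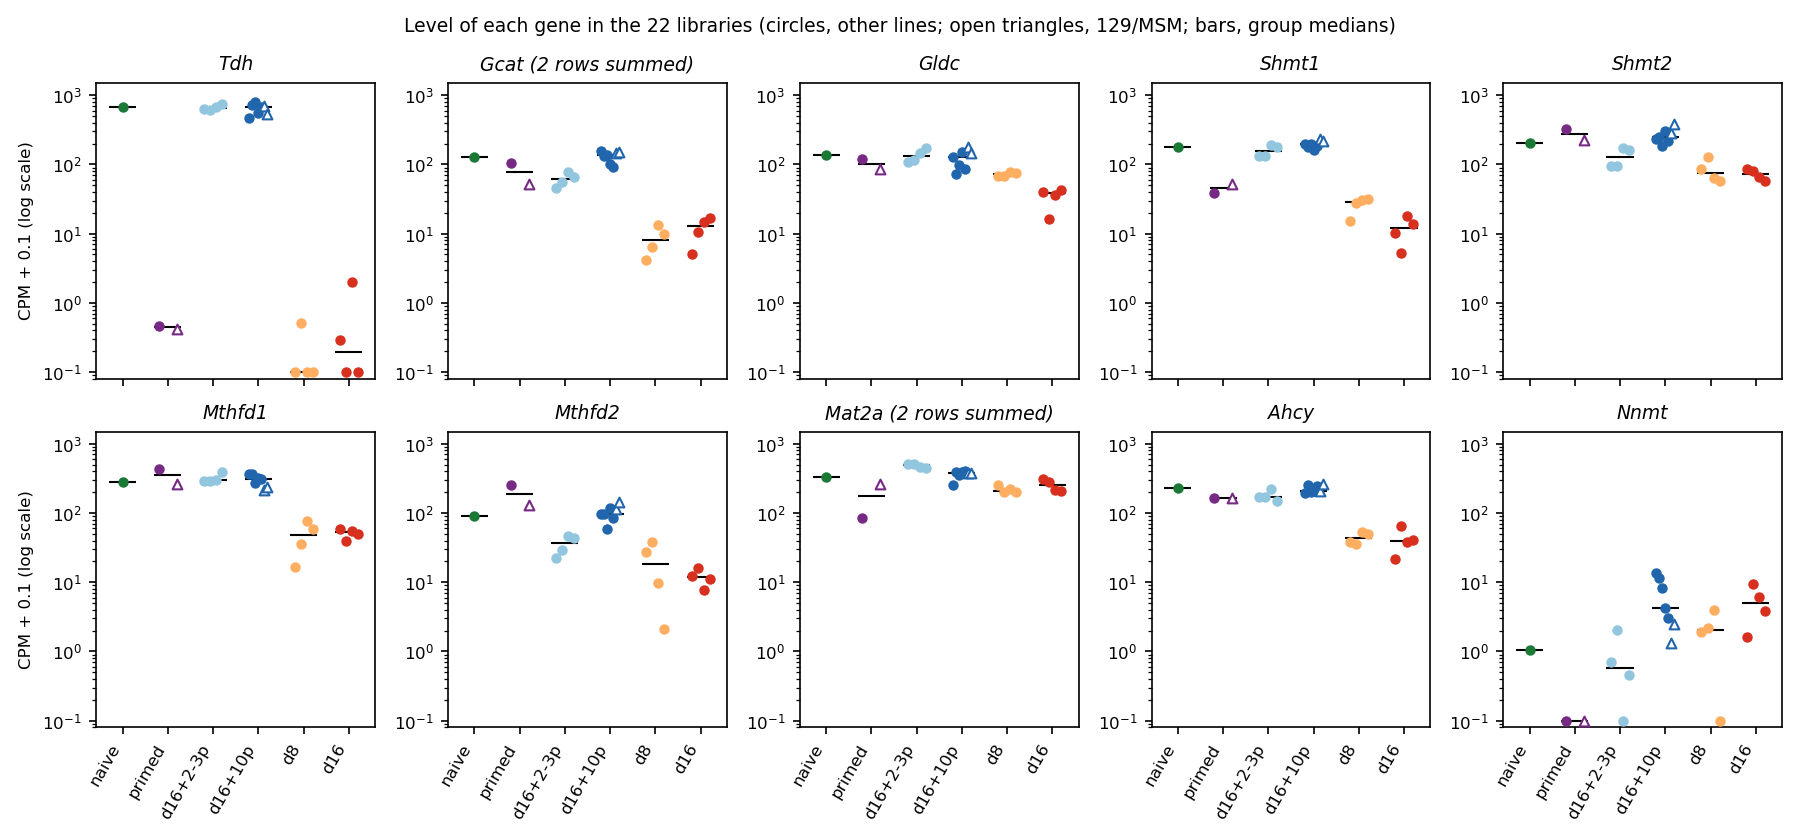
Level of each gene (CPM plus 0.1, log axis) in every library by group, with Gcat and Mat2a as sums of their entries, open triangles for 129/MSM, circles for the other lines and bars at group medians. Tdh is at 465 CPM and above in naive and reverted libraries and at 1.88 CPM and below elsewhere, while Mat2a differs far less between groups.

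Shmt1, the cytosolic enzyme that interconverts serine and glycine, was at 176 CPM in naive mESCs, 39.1 in primed Oct4GIP and 52.6 in primed 129/MSM. In reverted cells it was at 132 (AICAR d16+2p), 131 (AICAR+LIF d16+2p), 192 (AICAR d16+3p) and 177 CPM (AICAR+LIF d16+3p), and at 159 (A769662+LIF), 199 and 231 CPM (129/MSM, AICAR) as lowest, median and highest at d16+10p. Every reverted library was above both primed libraries, and the naive library lay within the reverted range. Of all genes tested, 38.5% did not overlap between d16+10p and primed libraries. The mean at d16+10p was 4.24-fold that of primed cells (log2 2.08, SE 0.32, adjusted p 2.99e-05), and 4.67-fold within Oct4GIP and 4.26-fold within 129/MSM. The call held in all 18 alternatives, at log2 values of 1.88 to 2.30. In the cultures Shmt1 was at 14.9 (Basal), 27.5 (2iL), 30.4 (AICAR) and 31.7 CPM (AICAR+LIF) at day 8 and at 10.0, 5.23, 17.8 and 13.6 CPM at day 16, all below primed cells (log2 −1.42, SE 0.27, adjusted p 0.00042). Day 16 was lower than day 8 in 15 of 16 pairs of libraries (log2 −1.19, SE 0.30, adjusted p 0.0182). That call was lost without 2iL d8 (−0.98, adjusted p 0.0584), without both AICAR libraries of day 8 (−1.37, adjusted p 0.0728) and after thinning (−0.53, adjusted p 0.295), in a range of 0.00264 to 0.295. Here too every day 16 fibroblast sum (6013 CPM and above) was over every day 8 sum (3806 CPM and below), and its part was not tested.

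Shmt2, the mitochondrial counterpart, was at 200.5 CPM in naive mESCs, 321 in primed Oct4GIP and 228 in primed 129/MSM. In reverted cells it was at 96.0 (AICAR d16+2p), 94.6 (AICAR+LIF d16+2p), 170.5 (AICAR d16+3p) and 163 CPM (AICAR+LIF d16+3p), and at 184 (A769662), 248 and 381 CPM (129/MSM, AICAR+LIF) as lowest, median and highest at d16+10p. The libraries of 2 passages were lowest among these, and none of the 4 early reverted libraries reached the range of 10 passages. The share of all genes that separate between these passages was not computed. The mean rose 2.02-fold with passage (log2 1.02, SE 0.24, adjusted p 0.00943). The adjusted p was 0.0512 without AICAR d16+2p (log2 0.90) and 0.0510 without AICAR+LIF d16+2p (log2 0.89), in a range of 0.00116 to 0.148. Against primed cells the difference at d16+10p was −0.05 (SE 0.29, adjusted p 0.924) with overlapping groups. The lines moved in opposite directions, with a ratio of 0.741 within Oct4GIP, where 0 of 5 libraries were higher, and 1.47 within 129/MSM, where 2 of 2 were. With AICAR and AICAR+LIF only, where the ratio within Oct4GIP was 0.752, the lines differed by log2 0.97 (SE 0.29, adjusted p 0.0790). The sign of the pooled difference was the other way without primed Oct4GIP (0.22), without A769662 d16+10p (0.02) and after thinning (0.06). The cultures held 84.6 (Basal), 128 (2iL), 63.6 (AICAR) and 57.5 CPM (AICAR+LIF) at day 8 and 84.8, 80.0, 66.1 and 57.4 CPM at day 16. All were below primed cells, by 3.53-fold in the mean (log2 −1.80, SE 0.26, adjusted p 3.2e-05).

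Mthfd1 interconverts the folate forms of the cytosol. It was at 279 CPM in naive mESCs, 438 in primed Oct4GIP and 263 in primed 129/MSM, at 290.5 (AICAR d16+2p), 288 (AICAR+LIF d16+2p), 302 (AICAR d16+3p) and 396 CPM (AICAR+LIF d16+3p), and at 218 (129/MSM, AICAR), 309.8 and 360.6 CPM (AICAR) as lowest, median and highest at d16+10p. These groups overlapped, and neither d16+10p comparison passed (log2 −0.24, SE 0.32, adjusted p 0.602 against primed and −0.11, SE 0.25, adjusted p 0.864 against d16+2–3p). The overlap with primed cells lay between lines, as the ratio was 0.742 within Oct4GIP (0 of 5 libraries higher) and 0.863 within 129/MSM (0 of 2 higher). The pooled difference from primed cells was 0.17 without primed Oct4GIP, and that from early passages was 0.01 without AICAR+LIF d16+3p and 0.02 without the 129/MSM libraries. In the cultures Mthfd1 was at 16.7 (Basal), 34.9 (2iL), 76.0 (AICAR) and 59.5 CPM (AICAR+LIF) at day 8 and at 59.2, 39.8, 54.5 and 49.8 CPM at day 16. All 8 were below every other library, 7.17-fold below primed cells in the mean (log2 −2.88, SE 0.29, adjusted p 5.15e-07). The part of the mixture of cells in this difference was not tested.

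Mthfd2 is the mitochondrial dehydrogenase and cyclohydrolase of the folate cycle. It was at 89.0 CPM in naive mESCs, 253 in primed Oct4GIP and 128 in primed 129/MSM. In reverted cells it was at 22.3 (AICAR d16+2p), 29.4 (AICAR+LIF d16+2p), 46.3 (AICAR d16+3p) and 43.4 CPM (AICAR+LIF d16+3p), and at 59.0 (A769662), 96.2 and 145 CPM (129/MSM, AICAR+LIF) as lowest, median and highest at d16+10p. Among these libraries levels were thus lowest after 2 passages, and all 4 early reverted libraries were below all 7 later ones and both primed ones. How many of all genes separate between early and late passages was not computed. The mean rose 2.88-fold with passage (log2 1.53, SE 0.36, adjusted p 0.00935), and without AICAR d16+2p the value was 1.36 (adjusted p 0.0508, in a range of 0.00101 to 0.140). Against primed cells d16+10p was lower in 13 of 14 pairs (log2 −0.91, SE 0.40, adjusted p 0.0785). That difference passed without primed 129/MSM (−1.32, adjusted p 0.0424), without any 129/MSM library (−1.51, adjusted p 0.0310), in limma voom (−0.87, adjusted p 0.0401), without normalization factors (−0.99, adjusted p 0.0437) and in a fit of the 9 libraries compared (−0.93, adjusted p 0.0269), in a range of 0.0269 to 0.696. It was 2.79-fold lower within Oct4GIP, whereas the ratio within 129/MSM was 1.01. On AICAR and AICAR+LIF only, where Oct4GIP was 2.64-fold lower, the lines differed by log2 1.43 (SE 0.29, adjusted p 0.0264). In the cultures Mthfd2 was at 26.9 (Basal), 37.4 (2iL), 9.50 (AICAR, 10 counts) and 1.98 CPM (AICAR+LIF, 1 count) at day 8 and at 12.3, 15.7, 7.51 and 10.95 CPM at day 16. All were below primed cells, by 12.5-fold in the mean (log2 −3.57, SE 0.37, adjusted p 8.56e-07).

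Gcat, Shmt2 and Mthfd2 are shown by promoter because they moved together between early and late passages. Promoters of 8 of the 10 genes matched the RefSeq table (GRCm38.p6), and each sequence is the 250 bases before the start, 5′ to 3′. They are Gcat at chr15:79030624-79030873 on the plus strand, Shmt2 at chr10:127522445-127522694 on the minus strand and Mthfd2 at chr6:83317605-83317854 on the minus strand, which lies inside the gene span given above (2 of its bases are exon), since the RefSeq start is downstream of the span's outer end. Capitals mark CCAAT on either strand.
Gcat: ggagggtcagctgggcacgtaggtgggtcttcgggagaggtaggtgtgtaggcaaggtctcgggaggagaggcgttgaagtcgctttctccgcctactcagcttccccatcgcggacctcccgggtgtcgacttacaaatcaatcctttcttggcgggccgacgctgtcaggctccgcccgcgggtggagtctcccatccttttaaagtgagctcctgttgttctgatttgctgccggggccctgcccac
Shmt2: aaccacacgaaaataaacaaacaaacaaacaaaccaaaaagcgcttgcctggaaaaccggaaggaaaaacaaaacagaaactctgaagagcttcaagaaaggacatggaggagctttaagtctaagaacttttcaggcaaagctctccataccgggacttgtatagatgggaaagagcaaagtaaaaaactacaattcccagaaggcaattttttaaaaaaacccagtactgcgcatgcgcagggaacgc
Mthfd2: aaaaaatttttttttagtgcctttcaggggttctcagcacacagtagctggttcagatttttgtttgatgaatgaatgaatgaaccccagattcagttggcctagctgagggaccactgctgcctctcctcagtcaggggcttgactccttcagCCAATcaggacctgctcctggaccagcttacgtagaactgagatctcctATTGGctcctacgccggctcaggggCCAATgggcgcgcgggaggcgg
Mthfd2 had 3 matches, at 96 to 92, 47 to 43 (reverse strand) and 22 to 18 bases before the start, and Gcat and Shmt2 had none. CCAAT was found in 6 of the 8 promoters (Gldc, Shmt1, Mthfd1, Mthfd2, Mat2a and Ahcy) and in 33.9% of all 32851. The E-box CACGTG (6.02% of all promoters), the ATF4 element TGATGNAA (3.45%) and the ESRRB element TCAAGGTCA (0.387%) were in 0 of the 8 on either strand. A match describes the letters and no factor, and a missing match says only that the letters are not in this window. The genes also lie apart, on chromosomes 15, 10 and 6, where the median log2 difference between d16+10p and d16+2–3p was 0.08, −0.04 and 0.07.

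The fibroblast sum also differed within the early passages, at 113 and 118 CPM after 2 passages against 27.7 and 21.5 CPM after 3, and the primed sum was higher there than after 10 passages mostly through Dnmt3b, at 420 to 570 CPM early and 42.1 to 224 CPM late. The part of either in the rise of Gcat, Shmt2 and Mthfd2 was not tested. Passage and activator are mixed in this comparison, since A769662 and metformin were sampled at d16+10p only. Without the 129/MSM libraries 1741 genes and the same 5 entries were called, with Gcat at 1.03 and 0.99, Shmt2 at 0.86 and Mthfd2 at 1.36. In a fit chosen after seeing the data, with AICAR and AICAR+LIF of Oct4GIP only at d16+10p, 504 genes were called in place of 1753, and Gcat (log2 1.27 and 1.16), Shmt2 (0.88) and Mthfd2 (1.43) kept their sign with adjusted p of 0.128, 0.166, 0.148 and 0.140.

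Mat2a makes S-adenosylmethionine, and Ahcy hydrolyses the S-adenosylhomocysteine left after methyl transfer. The Mat2a entries summed to 336 CPM in naive mESCs, 83.4 in primed Oct4GIP and 263 in primed 129/MSM, to 508 (AICAR d16+2p), 502 (AICAR+LIF d16+2p), 468 (AICAR d16+3p) and 442 CPM (AICAR+LIF d16+3p), and to 252.6 (AICAR), 379 and 404 CPM (metformin+LIF) as lowest, median and highest at d16+10p. The primed libraries differed 3.15-fold from each other, and all early reverted libraries were above all later ones. For this separation of early from late passages the share over all genes was not computed. At d16+10p the entries were higher than in primed cells by 1.06 (SE 0.30, adjusted p 0.00828) and 1.08 (SE 0.28, adjusted p 0.00404). These calls rested on primed Oct4GIP, without which they were at 0.46 (adjusted p 0.244, in a range of 6.69e-05 to 0.244) and 0.48 (adjusted p 0.128, in a range of 5.69e-06 to 0.128). The summed ratio was 4.30 within Oct4GIP and 1.44 within 129/MSM. On AICAR and AICAR+LIF only, where it was 3.87 within Oct4GIP, the entries differed between lines by −1.37 (SE 0.38, adjusted p 0.0647) and −1.48 (SE 0.37, adjusted p 0.0487). Between d16+10p and d16+2–3p the differences of −0.42 (SE 0.21, adjusted p 0.254) and −0.38 (SE 0.20, adjusted p 0.260) did not pass, although the groups did not overlap. In a fit of those 11 libraries alone they did, at adjusted p of 0.0249 and 0.0239, in ranges of 0.0249 to 0.425 and 0.0239 to 0.487.

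In the cultures the Mat2a sum was 255 (Basal), 202 (2iL), 220.4 (AICAR) and 198 CPM (AICAR+LIF) at day 8 and 307, 281, 218 and 204 CPM at day 16. These lie around the level of primed 129/MSM and above that of primed Oct4GIP, and neither entry passed against primed cells (log2 0.45, SE 0.28, adjusted p 0.219 and 0.43, SE 0.26, adjusted p 0.206). Without primed 129/MSM the entries were called at 1.44 and 1.46 (adjusted p 0.00153 and 0.000251), and without primed Oct4GIP their sign was the other way at −0.14 and −0.17 (adjusted p 0.756 and 0.598). Over the alternatives the adjusted p of Mat2a ran from 0.00153 to 0.756 and from 0.000251 to 0.598. Of the 10 genes, Mat2a and Tdh were not called in this comparison, and Tdh was at or near the floor in all of its libraries.

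Ahcy was at 232 CPM in naive mESCs and at 163 (Oct4GIP) and 165 CPM (129/MSM) in primed cells. It was at 168 (AICAR d16+2p), 168 (AICAR+LIF d16+2p), 219 (AICAR d16+3p) and 151 CPM (AICAR+LIF d16+3p), and at 194 (AICAR), 211 and 259 CPM (129/MSM, AICAR+LIF) as lowest, median and highest at d16+10p. All 7 of these last values were above both primed values, as 38.5% of all genes tested also did not overlap between these groups. The mean was 1.36-fold higher (1.34-fold within Oct4GIP and 1.42-fold within 129/MSM), but the difference did not pass (log2 0.45, SE 0.26, adjusted p 0.186). In a fit of those 9 libraries alone it was 0.42 (adjusted p 0.0420, in a range of 0.0420 to 0.452). In the cultures Ahcy was at 38.1 (Basal), 34.9 (2iL), 53.2 (AICAR) and 49.6 CPM (AICAR+LIF) at day 8 and at 21.6, 65.6, 37.6 and 41.2 CPM at day 16. All were below every other library, 3.85-fold below primed cells in the mean (log2 −1.97, SE 0.23, adjusted p 2.97e-06).

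Nnmt spends S-adenosylmethionine on the methylation of nicotinamide. It was near the floor in most libraries, with 3 counts in naive mESCs (0.934 CPM), 0 in both primed libraries, and 2 (AICAR d16+2p), 5 (AICAR+LIF d16+2p), 0 (AICAR d16+3p) and 1 (AICAR+LIF d16+3p) in early reverted cells. At d16+10p it was at 13.6 (AICAR), 11.4 (AICAR+LIF), 8.03 (A769662), 4.16 (A769662+LIF) and 2.99 CPM (metformin+LIF) in Oct4GIP and at 1.23 (AICAR, 3 counts) and 2.36 CPM (AICAR+LIF) in 129/MSM. The Oct4GIP values were all above the 129/MSM values. The mean of Nnmt at d16+10p was 5.64-fold the floor of the primed libraries (adjusted p 0.00302 in edgeR), 7.25-fold within Oct4GIP and 1.89-fold within 129/MSM. These folds leave out the counting error of the reverted libraries, which in 129/MSM held only 3 and 6 counts. The test of a difference between the lines was run but carried no information, as both primed libraries were at 0 (SE 4616). Against d16+2–3p it was 8.75-fold higher in the mean (log2 3.06, SE 0.80, adjusted p 0.0198), in 27 of 28 pairs. That call was lost without AICAR d16+2p (2.98, adjusted p 0.0679), without AICAR d16+3p (2.67, adjusted p 0.0668) and without AICAR+LIF d16+3p (2.85, adjusted p 0.0676), in a range of 0.00406 to 0.0679. In the cultures Nnmt was at 1.82 (Basal), 2.08 (2iL), 3.80 (AICAR) and 0 CPM (AICAR+LIF) at day 8 and at 1.51, 9.25, 5.95 and 3.78 CPM at day 16. The mean of the cultures was 3.18-fold the primed floor, again without their own counting error (adjusted p 0.0109 in edgeR). That call was lost without primed Oct4GIP, without primed 129/MSM and without any 129/MSM library, each of which leaves 1 primed library. The fitted log2 differences there, over primed counts of 0, were 6.16, 6.12 and 6.19, against 6.16 in the main fit. The lowest adjusted p over the alternatives was 0.00276.

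Within the cultures, the 4 libraries with AICAR, alone or with LIF, were set against the 4 without it over both days. The first Gcat entry was higher in all 4 libraries with AICAR than in all 4 without (log2 1.26, SE 0.36, p 0.00673, adjusted p 0.0590), and Shmt2 (−0.56, SE 0.17, p 0.0103, adjusted p 0.0730) and Mthfd2 (−1.26, SE 0.42, p 0.0148, adjusted p 0.0879) were lower in all 4. The libraries with and without AICAR did not overlap for 11.1% of the 14026 genes tested and 62.7% of the 1347 called. The first Gcat entry rests on as few as 4 counts with AICAR. The second, not tested here, was higher in 13 of 16 pairs and the Gcat sum in 15 of 16, so both of these overlapped. Shmt1 was higher in 13 of 16 pairs (0.83, SE 0.29, p 0.0208, adjusted p 0.106). None passed the adjusted threshold in edgeR. DESeq2 called Gcat (1.27, adjusted p 0.0364) and Mthfd2 (−1.29, adjusted p 0.0321), and limma voom called Gcat (1.44, adjusted p 0.0352). Without 2iL d16, edgeR called Gcat (1.50, adjusted p 0.0335) and Ahcy (0.72, adjusted p 0.0230). Mthfd1 was higher in 14 of 16 pairs (0.73, SE 0.36, adjusted p 0.215), and edgeR called it without the low-count filter (0.71, adjusted p 0.0401). Over the alternatives the adjusted p ran from 0.0335 to 0.244 for Gcat, from 0.0495 to 0.371 for Shmt2 and from 0.0401 to 0.958 for Mthfd1. It ran from 0.00453 to 0.380 for Mthfd2 and from 0.0230 to 0.970 for Ahcy. Ahcy and Nnmt changed sign when 1 library was left out. Ahcy was at 0.20 (SE 0.35, adjusted p 0.743) and at −0.03 without Basal d16, and Nnmt was at 0.08 (SE 0.68, adjusted p 0.958) and at −0.51 without Basal d16, −0.26 without AICAR d8 and −0.08 without AICAR d16. Between the days, Ahcy was near 0 (−0.04, adjusted p 0.952) with a sign that depended on the libraries kept, and it passed only without 2iL d16 (−0.56, adjusted p 0.0390, in a range of 0.0390 to 0.979).

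Depth moved with the AICAR comparison at day 8, where the AICAR libraries were the smallest of the series. After thinning to the smallest total 716 of 8803 genes were called by edgeR. The fibroblast sum did not separate by AICAR, since at day 16 the AICAR cultures (18362 and 20228 CPM) lay between Basal medium (6013) and 2iL (52618). Pou5f1 did, at 14.2, 35.7, 3.76 and 21.5 CPM with AICAR and 1.45 CPM or less without. The naive and primed sums were also higher with AICAR within each day, at 58.9 and 125 against 29.4 and 16.6 CPM (naive) and 140.6 and 103 against 87.5 and 55.3 CPM (primed) at day 8, and at 83.9 and 100.1 against 80.2 and 71.2 CPM and 151 and 169 against 126 and 18.5 CPM at day 16. Sox2, the most abundant of the shared list, was at 188 and 105 CPM with AICAR against 174 and 225 CPM without at day 8. At day 16 it was lower with AICAR, at 125 and 99.3 against 313 and 165 CPM. The shared sum overlapped at day 8 (215 and 198 against 176 and 226 CPM) and was lower with AICAR at day 16 (131 and 165 against 315 and 185 CPM). Levels of several markers thus moved with AICAR, though not in the same direction for all. The naive sums of AICAR and Basal medium at day 16 were close, with Klf4 at 57.9 CPM in each. At day 8 only 2 of 8 naive markers were above the floor in each of the shallow AICAR libraries. The part of what the cultures held in Gcat, Shmt2 and Mthfd2 was not tested. In a fit without both AICAR libraries of day 8, chosen after seeing the data, edgeR called 0 genes, with 3007 at an unadjusted p under 0.05. Leaving out 1 library moved the count of genes called from 1347 to 245 without AICAR d8, 394 without Basal d8, 415 without AICAR+LIF d16, 442 without AICAR+LIF d8, 613 without 2iL d8, 638 without AICAR d16, 736 without Basal d16 and 2654 without 2iL d16. Tdh and the second Gcat entry had too few counts in the cultures to be tested there.

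The mitochondrial and cytosolic forms of each enzyme pair can be set side by side as ratios of counts within a library. Shmt2 to Shmt1 was 1.14 in naive mESCs, 8.20 in primed Oct4GIP and 4.33 in primed 129/MSM, 0.726 (AICAR d16+2p), 0.723 (AICAR+LIF d16+2p), 0.886 (AICAR d16+3p) and 0.922 (AICAR+LIF d16+3p), and 0.928 (A769662), 1.24 and 1.92 (A769662+LIF) as lowest, median and highest at d16+10p. In the cultures it was 5.68 (Basal), 4.67 (2iL), 2.09 (AICAR) and 1.81 (AICAR+LIF) at day 8 and 8.45, 15.3, 3.70 and 4.22 at day 16. All reverted libraries and the naive one were below all primed libraries and all cultures but AICAR+LIF d8, and at each day the AICAR cultures were below the others. Mthfd2 to Mthfd1 was 0.320 in naive mESCs, 0.578 in primed Oct4GIP and 0.489 in primed 129/MSM, 0.0767, 0.102, 0.153 and 0.1096 at d16+2–3p in the same order, and 0.218 (A769662), 0.272 and 0.618 (129/MSM, AICAR+LIF) at d16+10p. All 4 early ratios were below all 7 later ones, and the 129/MSM libraries, at 0.521 and 0.618, were above the 5 of Oct4GIP. In the cultures it was 1.61 (Basal), 1.07 (2iL), 0.125 (AICAR) and 0.0333 (AICAR+LIF) at day 8 and 0.208, 0.394, 0.138 and 0.220 at day 16. The low ratios of the day 8 cultures with AICAR rest on 10 counts and 1 count of Mthfd2. These ratios carry no test.

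**Figure D4:**
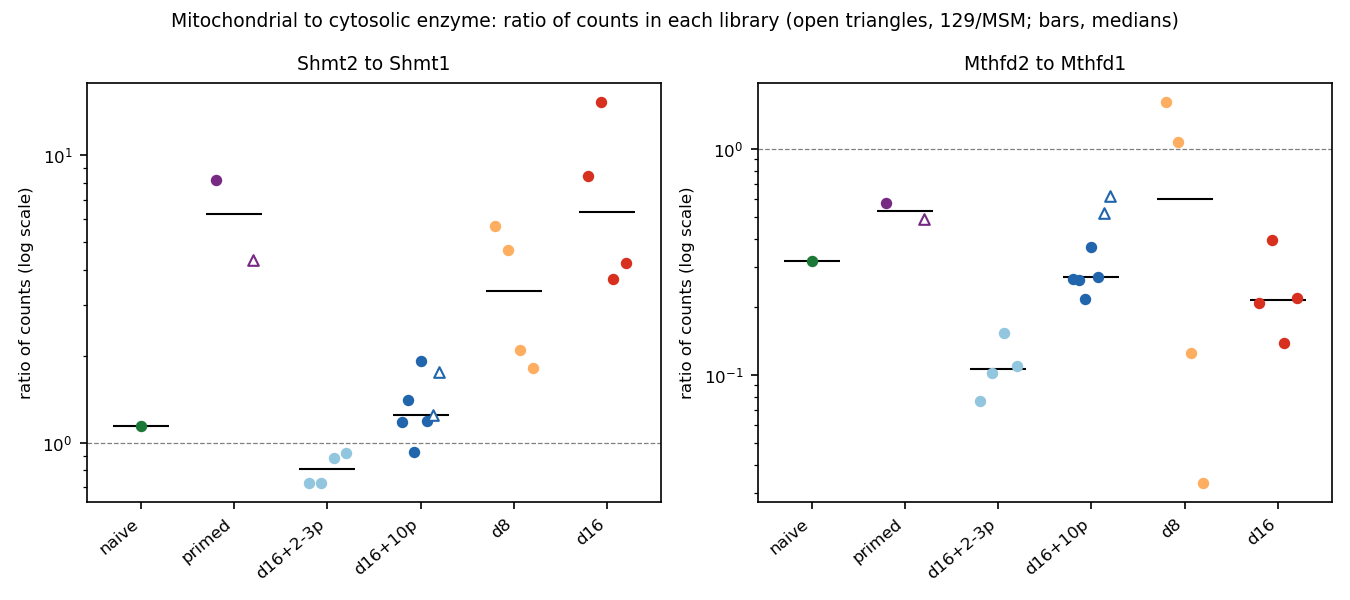
Ratio of counts of the mitochondrial to the cytosolic enzyme (log axis) in each library by group, for Shmt2 to Shmt1 and Mthfd2 to Mthfd1. Primed libraries have Shmt2 to Shmt1 ratios of 4.33 and 8.20, and reverted libraries lie between 0.723 and 1.92.

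Between genes, levels were compared per kilobase of annotated exon. By group median, Tdh was first of the 10 in naive mESCs (257 CPM per kilobase), at d16+2–3p (250.7) and at d16+10p (258), ninth in primed cells (0.131) and last in the cultures. Shmt2 was first in primed cells (88.2), and Mat2a was first in the cultures (47.0 at day 8 and 55.7 at day 16) and second in reverted cells (108 and 84.6). The Mat2a values divide the sum of both entries by the exon length of the first, as the second has none annotated, so its rank is uncertain. Ahcy was second in naive mESCs (82.8). In primed cells the next after Shmt2 was Mthfd1 (78.8), and their ranges, 73.3 to 103 and 59.1 to 98.5 CPM per kilobase, overlapped.

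A list of 49 further symbols of these pathways had 48 with an entry (Sds had none), and 47 entries were tested in the 22-library fit. Between d16+10p and primed cells 12 of the 47 were higher and 6 lower, which is 38.3% against 36.6% of all genes, with a median log2 difference of 0.09 against −0.01. The largest rises were in the folate receptor Folr1, at 0.634 to 0.738 CPM in primed cells and 15.3 to 45.9 CPM at d16+10p (ratio 46.4, counting interval 18.0 to 171), in the homocysteine methyltransferase Bhmt2 (ratio 17.6, counting interval 3.04 to 708), in the folate carrier Slc46a1 (log2 2.22, SE 0.76, adjusted p 0.0257) and in Amt, which acts with Gldc in glycine cleavage (log2 2.17, SE 0.33, adjusted p 2.67e-05). Amt was at 37.7 and 41.0 CPM in primed cells, at 145 to 214 CPM at d16+10p and at 183 CPM in naive mESCs. The largest decreases were in Mthfd2l, a relative of Mthfd2 (log2 −3.17, SE 0.39, adjusted p 2.58e-06), in Sdsl, which was 6.47-fold lower (counting interval 2.25 to 21.01), in the glycine carrier Slc6a9 (−1.68, SE 0.60, adjusted p 0.0333) and in Phgdh, the first enzyme of serine synthesis (−1.52, SE 0.44, adjusted p 0.0097). Bhmt2 rests on 0 and 1 counts in primed cells and as few as 2 at d16+10p. In primed cells Slc46a1 rests on 0 and 11 counts and Folr1 on 2 in each library. Sdsl rests on 5 and 7 counts there and on 0 to 3 at d16+10p. Phgdh overlapped between the groups, at 113 and 389 CPM in primed cells and 49.4 to 120.4 CPM at d16+10p, and the other 7 did not, as was so for 84.4% of all 6863 genes called in this comparison.

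Between d16+10p and d16+2–3p 8 of the 47 were higher and 1 lower, which is 19.1% against 9.35% of all genes, with a median of 0.21 (0.16 with floor values at their bound) against −0.00. They included 2 of 3 enzymes of serine synthesis (Phgdh and Psat1), both of transsulfuration (Cbs and Cth) and 2 of 6 amino acid carriers (Slc1a4 and Slc1a5), beside Amt and Aldh1l1. The latter was the only call among 16 folate cycle entries, and none was called among 8 of the methionine cycle, 4 small-molecule methyltransferases and 4 of methionine salvage and polyamines. Psat1 rose from 104 to 184 CPM in early to 364 to 524 CPM in late libraries (log2 1.68, SE 0.39, adjusted p 0.0091). Cth rose from 15.7 to 35.6 to 35.8 to 123 CPM (1.69, SE 0.29, adjusted p 0.000986), Cbs from 24.8 to 32.4 to 50.8 to 123 CPM (1.68, SE 0.40, adjusted p 0.0105) and Aldh1l1, a folate dehydrogenase, from 10.7 to 16.9 to 29.9 to 123 CPM (2.36, SE 0.39, adjusted p 0.000811). None of these groups overlapped, and the share of all called genes of which this holds was not computed for this comparison. The amino acid carrier Slc38a2 was the exception, with 442 to 655 CPM early and 158 to 340.0 CPM late (−1.06, SE 0.25, adjusted p 0.00977).

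Between the cultures and primed cells 3 of the 47 were higher and 17 lower, which is 42.6% against 37.5% of all genes, with a median of −0.33 against 0.04. Cth was at 0 to 0.378 CPM in the cultures and at 53.5 and 64.0 CPM in primed cells, 300.7-fold lower with a counting interval of 116 to 1109.7. The carriers Slc1a5 (log2 −3.04, SE 0.34, adjusted p 2.01e-06) and Slc7a5 (−2.84, SE 0.44, adjusted p 5.71e-05) and the mitochondrial folate enzyme Mthfd1l (−2.51, SE 0.32, adjusted p 7.76e-06) followed. The 3 that were higher were Folr1, Sdsl (2.51, SE 0.74, adjusted p 0.0109) and Gamt (1.94, SE 0.71, adjusted p 0.0372). For Folr1 the ratio of summed counts was 34.8 (counting interval 13.5 to 128), which leans on a day 16 library with 330 counts (62.4 CPM). Its fitted log2 value was 3.47 (SE 0.93), day 8 was at 0 to 5.95 CPM, and 14 of 16 pairs were higher. Cth, like Gcat, Mthfd1 and Ahcy, was thus far lower in the cultures than in any library of expanded cells. The share of all genes that separate in this way was not computed, and the part of the mixture of cells in these differences was not tested.

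With AICAR in the cultures 1 of the 42 entries tested in the 8-library fit was higher and 6 were lower, which is 16.7% against 9.60% of all genes, with a median of −0.12 against −0.02. Mthfd1l was higher (log2 1.16, SE 0.27, adjusted p 0.0322). Aldh1l2, another mitochondrial folate enzyme (−1.92, SE 0.36, adjusted p 0.0191), Slc1a4 (−1.82, SE 0.26, adjusted p 0.0101), Psph (−1.63, SE 0.30, adjusted p 0.0182) and Psat1 (−1.56, SE 0.26, adjusted p 0.0127) were lower. For these 5, the largest changes among the genes called, the libraries with AICAR did not overlap those without, as was so for 62.7% of the 1347 genes called and 11.1% of all tested. Their lowest counts at day 8 were 17 (Mthfd1l), 7 (Aldh1l2), 7 (Slc1a4), 4 (Psph) and 22 (Psat1). No gene was called by edgeR without both AICAR libraries of day 8, a fit chosen after seeing the data. Pou5f1 and the naive and primed sums, but not Sox2, were higher with AICAR within each day. Their part in these calls was not tested. Between day 16 and day 8, 9 were higher and 4 lower, which is 31% against 31.2% of all genes, with a median of 0.22 against 0.01. Cbs rose from 0.950 to 4.99 CPM at day 8 to 18.9 to 107 CPM at day 16 (4.32, SE 0.51, adjusted p 0.0015), with Folr1 (3.75, SE 0.84, adjusted p 0.0128), Aldh1l1 (3.11, SE 0.33, adjusted p 0.00104) and Ggh (1.87, SE 0.42, adjusted p 0.0131). Among those lower were Sms (−1.32, SE 0.17, adjusted p 0.00188), Mthfd2l (−1.17, SE 0.20, adjusted p 0.00444) and Mat2b, the regulatory subunit for Mat2a (−0.70, SE 0.16, adjusted p 0.0147). The fibroblast sum differed between the days as well, at 3230.1 to 3806 CPM at day 8 and 6013 to 52618 CPM at day 16. Its part in these calls was not tested.

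**Figure D5:**
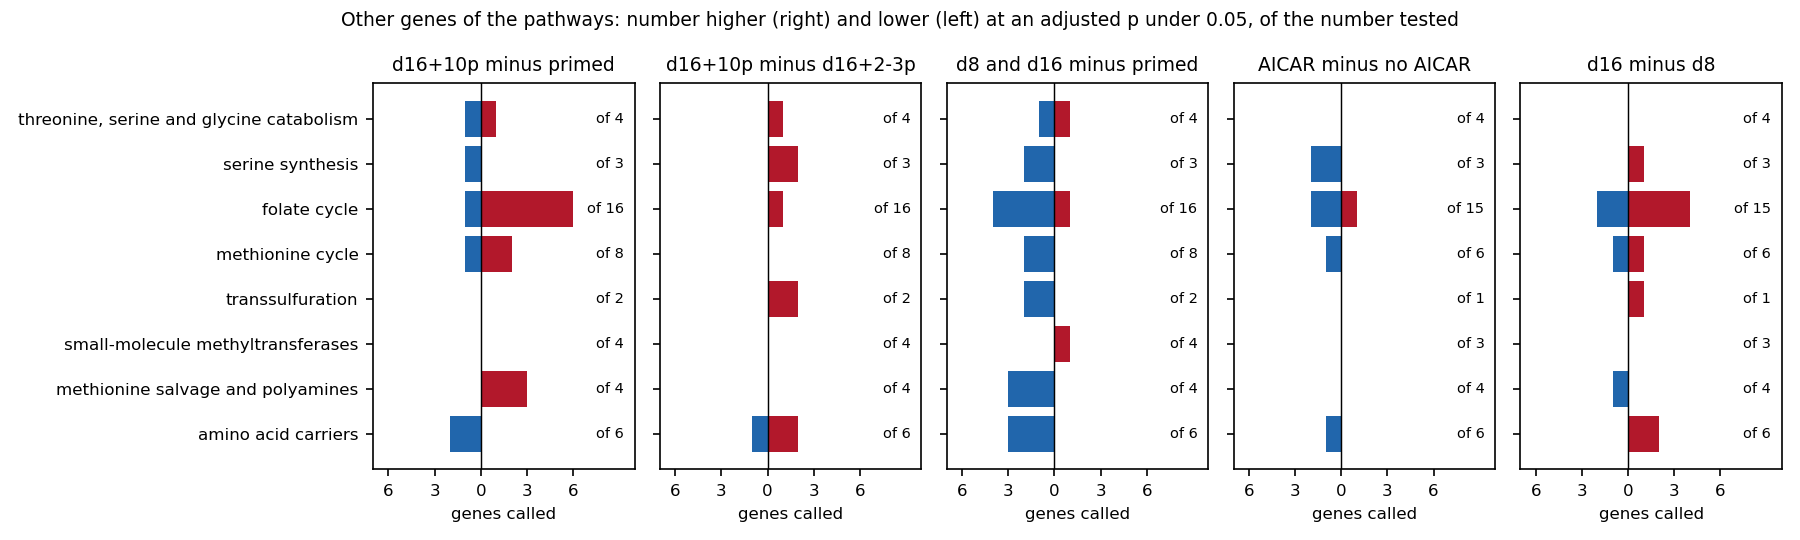
Numbers of further pathway genes called higher (right) and lower (left) in each of the 5 comparisons, by role, beside the number tested. Transsulfuration has 2 of 2 higher after 10 passages and 2 of 2 lower in the cultures.

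The genes most like 3 of the enzymes across the 22 libraries were found by Pearson r of log2 CPM, given as a description since the libraries fall into groups. For Tdh, among 11191 genes, they were Dppa5a (0.996), Zfp42 (0.995) and Gm10323 (0.995). Dppa5a was at 734 to 1302 CPM at d16+10p and at 0 to 0.378 CPM in the cultures, and Zfp42, which is also on the naive marker list, was at 276 to 639 CPM at d16+10p. For Gldc they were Kif15 (0.942), Bend4 (0.936) and Brd8 (0.932), each lower at day 16 than at day 8 by median. For Nnmt, among 11192 genes, they were Fkbp15 (0.837), Clock (0.807) and Twf1 (0.793), a looser likeness than for the others.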

How the data were processed

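The authors deposited read counts per gene, made as they describe with bcl2fastq and Bowtie2 2.2.5, from stranded single reads placed on the Ensembl release 100 transcripts of GRCm38 with a mapping quality of at least 1. The table was used as deposited, and the transcript counts and the list of detected genes were not used here. Entries whose name equals 1 of 10 listed symbols were followed in all 22 libraries, and the members and lists were chosen with earlier results of these data known. edgeR 4.0.16 (R 4.3.3) filtered low counts by group, took TMM factors and applied quasi-likelihood F tests in a fit of 22 libraries in 6 groups (16 residual degrees of freedom) and in a fit of 8 cultures with AICAR and day (5 residual degrees of freedom), with Benjamini-Hochberg adjusted p under 0.05 as called. Alternatives were DESeq2 1.42.0, limma voom 3.58.1, other filters, no factors, thinned counts, fewer libraries and each library left out. Interactions of reversion with line (6 libraries, 14134 genes) and of AICAR with day (8 libraries, 14026 genes) were also fitted.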

Additional observations from a re-analysis of the deposited data

Results flagged for a closer look

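Each of 48 sets of values of 1 entry in 1 group was examined with Dixon's ratio for its lowest and highest library, and interactions with line or day were tested for the effects. Dixon's ratio singled out 5 values in 4 libraries, and an interaction 2 effects. Over all genes the interaction of reversion with line called 878 of 14134 and that of AICAR with day 28 of 14026. Chance alone gives about 1 in 20 groups.

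Tdh in 2iL d8 was the highest of its day with a ratio of 1 on 1 count against 0 in the others, and Tdh in AICAR d16 with a ratio of 0.836 on 6 counts (1.88 CPM) against 1, 0 and 0. Both are counts near the floor, in cultures where Pou5f1 was at 0.832 and 3.76 CPM.

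Mthfd1 in AICAR+LIF d16+3p, at 396 CPM, was above 288, 290.5 and 302 CPM in the other early reverted libraries (ratio 0.851). The total of this library, 3046574 counts, lay within the range of the others. The cause was not tested.

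Both Mat2a entries were lowest in AICAR d16+10p, at 121 CPM against 179.5 to 203 CPM in the other 6 libraries for ENSMUSG00000053907 (ratio 0.765) and at 132 CPM against 170 to 205 CPM for ENSMUSG00000104463 (ratio 0.579). This library had the smallest total of its group, 1689495 counts. Whether the depth plays a part was not tested.

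Reversion differed between the lines for Mthfd2 by log2 1.43 (SE 0.29, adjusted p 0.0264) and for Mat2a ENSMUSG00000104463 by −1.48 (SE 0.37, adjusted p 0.0487). The fit held 6 libraries with 2 residual degrees of freedom and 1 primed library per line, so the difference cannot be told apart from that between the primed libraries, which were also grown on different surfaces and had fibroblast sums of 64.6 (Oct4GIP) and 848 CPM (129/MSM). These were at 253 (Oct4GIP) and 128 CPM (129/MSM) for Mthfd2 and at 41.0 and 131.5 CPM for the Mat2a entry.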

How the results depend on the processing

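For d16+10p against primed cells, 6863 genes and 5 of the entries were called. Of 18739 genes, 7439 (7 entries) had at least 10 counts in every library and 13336 were tested after thinning, so counts under these alternatives come from smaller sets. The first called 2880 genes and 3 entries and the second 3562 genes, and fitting only the libraries compared called 8 of 12 entries and 5855 of 14506 genes. With 1 library left out, the genes called ran from 4462 (without primed Oct4GIP) to 6766 (without AICAR+LIF of 129/MSM at d16+10p) and the entries from 4 (without primed Oct4GIP) to 6 (without primed 129/MSM).

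For d16+10p against d16+2–3p, where 1753 genes and 5 entries were called, at least 10 counts in every library gave 856 genes and 1 entry, thinning 644 genes and 3 entries, and the compared libraries alone 3002 genes of 13462 and 8 entries. With only AICAR and AICAR+LIF of Oct4GIP at d16+10p, an alternative chosen after seeing the data, 504 genes and 1 entry (Nnmt, adjusted p 0.0195) were called. With 1 library left out, genes ran from 939 (without AICAR d16+2p) to 1847 (without metformin+LIF) and entries from 0 (without AICAR d16+2p) to 5. Genes called were 965 without AICAR+LIF d16+2p and 1087 without AICAR d16+3p, and entries were 2 without AICAR+LIF d16+2p and 3 without AICAR+LIF d16+3p.

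For the cultures against primed cells, where 7032 genes and 9 entries were called, at least 10 counts in every library gave 3477 genes and 5 entries, thinning 3930 genes, and the compared libraries alone 4595 of 15916. With 1 library left out, genes ran from 4115 (without primed Oct4GIP) to 7260 (without AICAR+LIF d8) and entries from 7 (without primed Oct4GIP) to 10 (without primed 129/MSM).

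For AICAR in the cultures, where 1347 genes and 0 entries were called and edgeR had 4 entries at an unadjusted p under 0.05, DESeq2 called 2140 genes and 2 entries and limma voom 1 entry. No filter gave 3143 genes of 29643 and 3 entries, at least 10 counts in every library 792 and 1 (of 8385 and 7 tested), no factors 1 entry, thinning 716 genes (of 8803) and leaving out the day 37. Without both AICAR libraries of day 8, chosen after seeing the data, edgeR called 0 genes, with 3007 at an unadjusted p under 0.05. With 1 library left out, genes ran from 245 (without AICAR d8) to 2654 (without 2iL d16) and entries from 0 to 2 (without 2iL d16). For day 16 against day 8, where 4383 genes and 2 entries were called, at least 10 counts in every library gave 2871 genes and thinning 2157 genes and 0 entries, of the same smaller sets. Without both AICAR libraries of day 8, edgeR called 0 entries. With 1 library left out, genes ran from 2411 (without 2iL d8) to 4067 (without AICAR+LIF d8) and entries from 1 (without 2iL d8) to 3 (without 2iL d16).

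Without normalization factors the share of called genes that were higher went from 36.9% to 54.4% for AICAR and from 57.9% to 45.1% for the day, where the median of all genes went from 0.01 to −0.13. Of 1009 alternatives of the fold changes of the entries, 927 were the same, 27 weaker (call lost) and 27 stronger (call gained), and 28 changed sign or went to 0 without a call in either fit. None changed sign where either fit called it.

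With 1 library per condition, 2 primed libraries of different lines and 1 naive library, no call here has replicates of its own condition behind it. The primed libraries decided several calls, and d16+10p differs from the earlier passages in activator too. The cultures held few Pou5f1 counts and many fibroblast counts, and the AICAR libraries of day 8 were shallow. Counts on overlapping or unplaced entries of Gcat and Mat2a cannot be assigned to either entry with certainty, and protein and metabolites were not analysed here.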

Other observations

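The naive library enters no test, as it is 1 library of another line. For 9 of the 10 genes, with Gcat and Mat2a summed, its level fell between the lowest and highest of the 7 libraries of 10 passages. The exception was Nnmt, at 0.934 CPM against 1.23 to 13.6 CPM, on 3 counts. Only Tdh, Gldc, Shmt1 and Nnmt fell between the lowest and highest of the 4 early reverted libraries. The naive level was above these for Gcat (129.5 against at most 77.6 CPM), Shmt2 (200.5 against 170.5), Mthfd2 (89.0 against 46.3) and Ahcy (232 against 219), and below them for Mthfd1 (279 against at least 288 CPM) and Mat2a (336 against 442). Over all 18739 genes tested, the naive level fell within the 10-passage libraries for 74% and within the early ones for 40.6%. A range of 7 libraries from 2 lines is wider by construction than a range of 4 from 1 line. Of the further pathway genes named in the text, the naive level was above the d16+10p libraries for Bhmt2 (25.8 against 0.597 to 4.92 CPM). It was below them for Slc1a4 (20.5 against 54.5 to 116), Aldh1l2 (2.80 against 4.13 to 20.8), Psph (27.4 against 28.7 to 57.0) and Psat1 (345 against 364 to 524 CPM).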
